A study of Mus musculus with 20 samples.

Results

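The genes described here are 10 genes known as markers of the hepatocytes around the central vein of the liver lobule, or as parts of the Wnt signal that sets up this zone: Glul, Oat, Slc1a2, Rhbg, Lgr5, Axin2, Tbx3, Rspo3, Znrf3 and Lect2. They are the rows of the gene table that carry these names, 10 of 38924 genes in all, and each name matched a single row. The members were chosen by name while their FPKM in these 20 livers, and the diet and genotype contrasts made from those values, were already known. The differences of these genes between groups are therefore given as descriptions with no p-value. Liver RNA was measured in 20 male mice, 5 per group, to ask how loss of thrombospondin-1 (TSP-1, gene Thbs1), a matrix protein that can activate latent TGF-β, bears on diet-induced liver fibrosis. The 4 groups were wild type on control diet (NDWT), TSP-1 null on control diet (NDKO), wild type on CDAHFD (HFWT) and TSP-1 null on CDAHFD (HFKO). CDAHFD is a high fat diet without choline and with defined amino acids, used to bring about steatohepatitis with fibrosis. Both genotypes carry C57/BL6 as strain background in the labels. The wild type animals were C57BL/6J, and the null animals came from a stock line that lacks TSP-1 in the whole body. The mice were bought at 5 weeks of age, kept for 1 week, and then fed for 12 weeks, so all groups shared the same age and feeding time. The series text gives the right medial lobe as the tissue, while the methods give the right lateral lobe. The methods describe the genotypes as separate purchased strains and not as littermates. Line and genotype therefore cannot be told apart in any genotype comparison.

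In the liver lobule, blood runs from the portal tract to the central vein, and hepatocytes express different enzymes along this path. Endothelial cells of the central vein release Wnt ligands and the R-spondin Rspo3, which keep β-catenin active in the nearest hepatocytes. These cells clear the last ammonium from the blood by making glutamine, which is the task of glutamine synthetase. Whole-liver RNA holds no position within the lobule, so the values below are levels summed over all zones.

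Promoter sequence from RefSeq (build GRCm38.p6) was at hand for 5 of the 10 genes, namely Glul, Oat, Slc1a2, Axin2 and Lect2. A core TCF/LEF motif, CTTTGAT, through which β-catenin acts on its targets, was searched on both strands in the 250 bases before each start. No other motif was searched. It was found in 2 of these 5 windows, those of Slc1a2 and Lect2, and in 3.21% of 32851 promoter windows of the same length. The Glul window is shown as that of the gene most used to mark this zone, and the other windows because they hold the motif. All 3 are written 5′ to 3′ on the strand of the gene, with the motif, which lies on the opposite strand and so reads ATCAAAG, in capitals.
Glul (chr1:153899679-153899928, plus strand): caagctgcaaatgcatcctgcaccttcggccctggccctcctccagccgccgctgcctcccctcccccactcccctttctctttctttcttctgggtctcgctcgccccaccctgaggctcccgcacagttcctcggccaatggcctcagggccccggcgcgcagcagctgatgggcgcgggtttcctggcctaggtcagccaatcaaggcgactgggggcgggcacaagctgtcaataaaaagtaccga
Lect2 (chr13:56548539-56548788, minus strand): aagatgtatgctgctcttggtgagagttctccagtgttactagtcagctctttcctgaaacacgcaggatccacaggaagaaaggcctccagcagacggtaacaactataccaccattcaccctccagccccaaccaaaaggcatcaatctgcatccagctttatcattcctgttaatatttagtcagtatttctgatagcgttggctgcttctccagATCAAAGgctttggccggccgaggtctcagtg
Slc1a2 (chr2:102706188-102706437, plus strand): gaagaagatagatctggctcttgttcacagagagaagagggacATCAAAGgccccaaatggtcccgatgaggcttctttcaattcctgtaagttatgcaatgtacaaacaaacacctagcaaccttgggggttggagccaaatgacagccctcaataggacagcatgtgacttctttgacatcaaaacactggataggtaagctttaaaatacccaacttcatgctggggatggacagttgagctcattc
In Lect2 the motif began 32 bases before the start. In Slc1a2 it began 207 bases before a start that lies inside the span the gene has in the expression table. A match of letters is a description and not a bound site, and its absence from the Glul, Oat and Axin2 windows says only that these letters are not there. GC content was 64.8% in the Glul window, 48.0% in that of Lect2 and 44.8% in that of Slc1a2, against a median of 52.4% over all windows.

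Libraries held 15641545 to 23276322 fragments assigned to genes (median 18950482.5). The values are FPKM, fragment counts scaled by gene length and by the total of assigned fragments, so levels of different genes can be compared per length. Thbs1, the targeted gene, was at 0.170, 0.326, 0.268, 0.0580 and 0.165 FPKM in NDWT and at 1.00, 1.5, 0.986, 1.90 and 1.13 in NDKO. On CDAHFD it was at 5.77, 6.10, 3.46, 3.91 and 3.86 FPKM in HFWT and at 3.30, 3.32, 3.05, 3.14 and 4.40 in HFKO. On control diet Thbs1 RNA was thus not lower under the null label, since every library labelled TSP-1 null lay above every wild type library. On CDAHFD a lower level was not called either, as HFKO overlapped HFWT (log2FC -0.39, SE 0.24, FDR = 0.408, not called). RNA of the gene does not measure TSP-1 protein, so loss of the protein was not tested here. The table gives 1 value for the whole gene, and which part of the transcript these fragments came from was not analysed here. "TSP-1 null" below therefore means the libraries labelled so, also wherever a direction between genotypes is given. Markers of hepatocytes were high throughout. Over 9 such genes the summed FPKM was 47259 to 51482 (NDWT), 50276 to 57232 (NDKO), 33900.0 to 46436 (HFWT) and 42541 to 57103 (HFKO).

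The first 4 members handle glutamine, glutamate, ornithine and ammonium, and their spans are given as in the table, on GRCm38. Glul (chr1:153899944-153909723, plus strand) encodes glutamine synthetase and had the highest level of the 10 genes on CDAHFD. It was at 323, 367, 279, 349 and 363 FPKM in the NDWT livers and at 294, 344, 365, 297 and 302 in the NDKO livers. On CDAHFD it was at 944, 707, 647, 488 and 635 FPKM in HFWT and at 443, 429, 469.8, 428 and 353 in HFKO. HFWT stood apart, with every library above every library of the other groups, and 1 HFWT liver reached 944 FPKM. The means of NDWT, NDKO, HFWT and HFKO were 336 ± 36.3, 320.2 ± 32.0, 684 ± 166 and 425 ± 43.5 FPKM (SD, n = 5, here and for every mean that follows). The order was HFWT, HFKO, NDWT, NDKO, and the last 3 overlapped their neighbours. In bulk tissue, fewer cells of a zone and less RNA per cell cannot be told apart.

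Oat (chr7:132557475-132576398, minus strand), ornithine aminotransferase, links ornithine to glutamate and is found with Glul in the same hepatocytes. It lay at 547, 490.3, 445, 648 and 742 FPKM in NDWT and at 674, 559.5, 638, 609 and 699 in NDKO, which overlapped. In HFWT it lay at 385, 353, 341, 280.3 and 390.5 FPKM, and in HFKO at 174, 185, 264, 183 and 127. Oat thus went the other way to Glul with the diet, and its groups formed 3 steps without overlap: both control diet groups, then HFWT, then HFKO. In the same order of groups, the means were 574 ± 120.5, 636 ± 54.8, 349.8 ± 44.1 and 187 ± 49.2 FPKM.

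Slc1a2, the glutamate transporter also called GLT-1, was read at 9.61, 10.6, 9.70, 14.0 and 16.0 FPKM in NDWT and 4.27, 4.68, 4.46, 3.99 and 6.20 in NDKO. Under CDAHFD it was read at 17.8, 20.1, 18.7, 13.7 and 20.6 FPKM in HFWT and 3.54, 5.07, 3.20, 2.81 and 3.68 in HFKO. On both diets every TSP-1 null liver lay below every wild type liver, while the diets overlapped within each genotype. The means were 12.0 ± 2.88, 4.72 ± 0.866, 18.2 ± 2.74 and 3.66 ± 0.856 FPKM in the same order of groups. The highest null liver had 6.20 FPKM and the lowest wild type liver 9.61 FPKM.

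Rhbg (chr3:88242874-88287210, minus strand), an ammonium transporter of the Rhesus family, measured 6.05, 8.44, 4.77, 4.93 and 5.76 FPKM in NDWT and 3.90, 4.69, 4.12, 4.74 and 4.25 in NDKO. With CDAHFD it measured 29.4, 20.7, 22.0, 19.0 and 14.8 FPKM in HFWT and 10.2, 16.7, 10.6, 8.55 and 12.0 in HFKO. Each CDAHFD library lay above each control diet library, and HFKO overlapped HFWT through 1 liver at 16.7 FPKM. On control diet the genotypes were parted narrowly, with 4.74 FPKM as the highest NDKO and 4.77 as the lowest NDWT value. The means were 5.99 ± 1.47, 4.34 ± 0.363, 21.2 ± 5.32 and 11.6 ± 3.10 FPKM. The Rhbg row is uncertain: its identifier is not in the GENCODE M21 annotation, and its span in the table overlaps Tsacc on the same strand, which had at most 0.803 FPKM as a group mean.

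**Figure D1:**
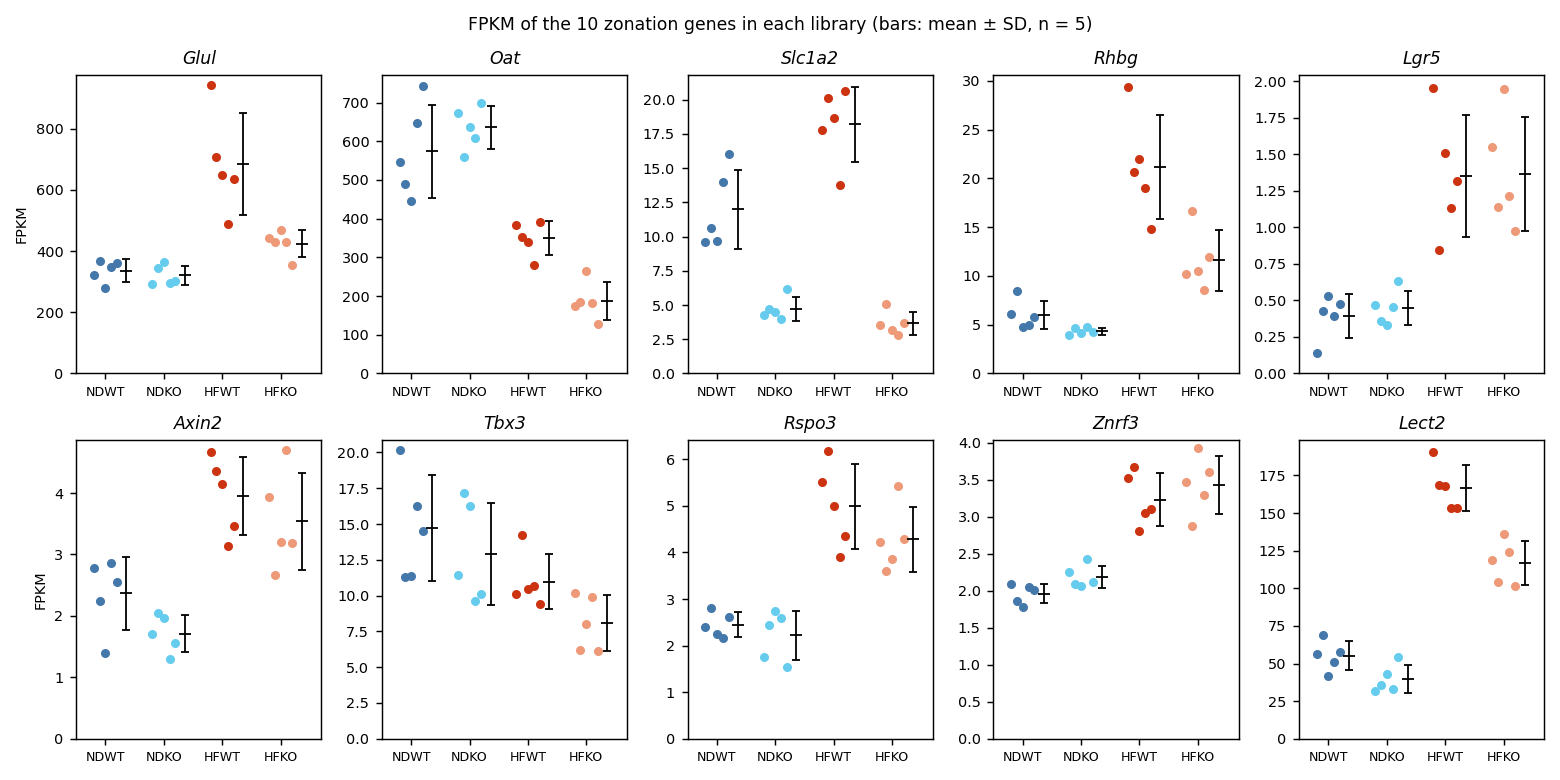
FPKM (linear axis from 0) of each of the 10 genes in the 20 libraries, with the 4 groups on the x axis, 1 point per mouse, and a black bar for the mean ± SD of 5 mice. Slc1a2 separates by genotype on both diets, Lgr5, Rspo3 and Znrf3 separate by diet, and Tbx3 overlaps between all neighbouring groups.

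The next 3 members act at the cell surface. Rspo3 (chr10:29453109-29535867, minus strand) is the ligand that R-spondin receptors bind and is made by central vein endothelium and by stromal cells. It was at 2.40, 2.80, 2.25, 2.17 and 2.62 FPKM in NDWT and 1.76, 2.44, 2.75, 2.59 and 1.55 in NDKO, against 5.52, 6.18, 5.01, 3.90 and 4.35 in HFWT and 4.22, 3.60, 3.85, 5.43 and 4.30 in HFKO. All 10 CDAHFD livers were above all 10 control diet livers, and the genotypes overlapped on each diet. The means were 2.45 ± 0.262, 2.22 ± 0.530, 4.99 ± 0.911 and 4.28 ± 0.701 FPKM in NDWT, NDKO, HFWT and HFKO.

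Lgr5 (chr10:115450311-115587780, minus strand), a receptor for R-spondins, was the lowest of the 10. It had 0.142, 0.426, 0.531, 0.392 and 0.479 FPKM in NDWT, and 0.467, 0.360, 0.333, 0.457 and 0.631 in NDKO. The CDAHFD livers had 1.96, 0.843, 1.51, 1.13 and 1.32 FPKM in HFWT, and 1.55, 1.14, 1.95, 1.21 and 0.976 in HFKO. Diets did not overlap, and genotypes did on both. The lowest library, an NDWT liver at 0.142 FPKM, still rested on 34 fragments. The means were 0.394 ± 0.150, 0.450 ± 0.117, 1.35 ± 0.418 and 1.37 ± 0.388 FPKM.

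Znrf3 (chr11:5276324-5444847, minus strand), a ubiquitin ligase that removes Frizzled receptors from the cell surface and is itself held back by R-spondins, varied little within groups. Values were 2.09, 1.86, 1.79, 2.04 and 2.01 FPKM in NDWT and 2.25, 2.08, 2.06, 2.42 and 2.11 in NDKO. For CDAHFD they were 3.52, 3.66, 2.81, 3.06 and 3.10 FPKM in HFWT and 3.47, 2.87, 3.93, 3.29 and 3.60 in HFKO. Here too the diets did not overlap and the genotypes did. The means were 1.96 ± 0.129, 2.19 ± 0.153, 3.23 ± 0.353 and 3.43 ± 0.392 FPKM, and the coefficient of variation within a group was 6.59% to 11.4%.

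The last 3 members are known to respond to β-catenin. Axin2 (chr11:108920349-108950783, plus strand), a scaffold of the complex that breaks down β-catenin and a direct target of it, was at 2.78, 2.24, 1.39, 2.87 and 2.55 FPKM in NDWT and 1.71, 2.05, 1.96, 1.29 and 1.55 in NDKO. The CDAHFD values were 4.67, 4.37, 4.14, 3.13 and 3.47 FPKM in HFWT and 3.94, 2.66, 3.21, 4.70 and 3.18 in HFKO. Within each genotype the CDAHFD livers all lay above those on control diet, although the lowest HFKO liver, at 2.66 FPKM, was under the highest NDWT liver at 2.87. The means were 2.37 ± 0.597, 1.71 ± 0.305, 3.95 ± 0.638 and 3.54 ± 0.792 FPKM.

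Tbx3 (chr5:119670669-119684724, plus strand), a T-box transcription factor, had 20.2, 11.3, 11.4, 16.3 and 14.5 FPKM in NDWT and 11.4, 17.2, 16.3, 9.64 and 10.1 in NDKO. The values were 10.1, 14.3, 10.5, 10.7 and 9.42 FPKM in HFWT and 10.2, 6.17, 7.99, 9.89 and 6.12 in HFKO. Its means, 14.7 ± 3.71, 12.9 ± 3.55, 11.0 ± 1.89 and 8.08 ± 1.95 FPKM, stepped down in this order of groups, but each group overlapped the next.

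Lect2 (chr13:56542460-56548538, minus strand), a protein secreted by hepatocytes that recruits leukocytes, was at 56.2, 68.7, 41.9, 51.3 and 57.8 FPKM in NDWT and 31.7, 35.9, 42.9, 33.2 and 54.5 in NDKO. It was at 191, 168, 168, 154 and 153 FPKM in HFWT and 119, 104, 136, 124 and 101 in HFKO. All CDAHFD livers stood above all control diet livers, and on CDAHFD each wild type liver stood above each null liver. On control diet the genotypes overlapped. The means were 55.2 ± 9.76, 39.6 ± 9.38, 167 ± 15.2 and 117 ± 14.4 FPKM.

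Fold changes were fitted with limma on log2(FPKM + 0.1) over 14524 genes, and a gene was called at an FDR (Benjamini-Hochberg) below 0.05 together with a log2FC beyond 0.58 in either direction. This scale understates the change of low genes such as Lgr5. The median gene was itself shifted with the diet, by a log2FC of 0.53 for WT and 0.50 for the null mice, and by -0.066 and -0.097 between genotypes on control diet and CDAHFD. Of the diet calls, 90.5% (WT) and 91.3% (TSP-1 null) were higher on CDAHFD. With median of ratios scaling these shares were 59.5% and 62%, and with quantile normalization 49.5% and 52.6%. A log2FC is given below as deposited. For the members it is also given relative to the median gene, for the diet in WT and, for some, in TSP-1 null mice. The other values below still hold the shift of their comparison, unless a relative value stands beside them.

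For CDAHFD against control diet in WT, 8 of the 10 genes were past the threshold upward and 1, Oat, downward, while 48.8% of all tested genes were called, 44.1% upward and 4.62% downward. Groups did not overlap for 8 of the 10, against 56.2% of all genes. In TSP-1 null mice 6 were past it upward and Oat and Tbx3 downward, beside 45.9% of all genes (41.9% upward and 4.00% downward), and 7 did not overlap, beside 57.8%. As the list was chosen with these contrasts in view, nothing is read from these counts. With median of ratios scaling the genes past the threshold were Lect2, Lgr5 and Rhbg upward and Oat and Tbx3 downward in WT, and the same 5 with Slc1a2 downward in TSP-1 null mice. Lect2 and Rhbg were the members past it upward in both genotypes as deposited and with either other scaling.

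The largest upward log2FC in WT was that of Rhbg, 1.80 (SE 0.18), which was 1.27 above the median gene. Lect2 followed with 1.61 (SE 0.14), or 1.08 relative to the median gene, and Lgr5 with 1.58 (SE 0.26), or 1.05. Glul stood at 1.00 (SE 0.13) and Rspo3 at 0.99 (SE 0.15), each between 0.45 and 0.48 above the median gene. Axin2, Znrf3 and Slc1a2 had log2FC of 0.74 (SE 0.18), 0.69 (SE 0.090) and 0.61 (SE 0.17), which lay 0.21, 0.16 and 0.083 above the median gene. These 3 genes therefore differed little from the gene in the middle of the table, and with quantile normalization Axin2 and Znrf3 changed sign. Oat was at -0.70 (SE 0.16) and Tbx3 at -0.40 (SE 0.20), or -1.23 and -0.93 relative to the median gene.

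In TSP-1 null mice the diet log2FC was 1.58 (SE 0.14) for Lect2, 1.40 (SE 0.26) for Lgr5 and 1.36 (SE 0.18) for Rhbg. Axin2 had 1.00 (SE 0.18) and Rspo3 0.94 (SE 0.15). Glul, at 0.41 (SE 0.13), lay -0.092 from the median gene, and Znrf3, at 0.62 (SE 0.090), lay 0.12 above it. Downward were Oat with -1.80 (SE 0.16), Tbx3 with -0.66 (SE 0.20) and, short of the threshold, Slc1a2 with -0.37 (SE 0.17). Relative to the median gene these 3 were at -2.30, -1.16 and -0.87. As deposited, the fitted diet value of Slc1a2 had opposite signs in WT and null mice. Its WT value was close to that of the median gene, however, and was 0.056 (SE 0.18) with median of ratios scaling. The fitted diet value of Glul was the smaller in null mice. For neither gene was the interaction, given below, past the threshold as deposited.

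For TSP-1 null against WT on control diet, 1 of the 10 genes was past the threshold, Slc1a2 with -1.31 (SE 0.17), beside 4.77% of all tested genes (1.74% upward and 3.03% downward). Nothing is read from this count or the next ones, for the same reason. Slc1a2 and Rhbg did not overlap, beside 9.03% of all genes. Lect2 was at -0.49 (SE 0.14), Rhbg at -0.43 (SE 0.18) and Axin2 at -0.42 (SE 0.18). The other members were between -0.19 (Tbx3) and 0.20 (Lgr5). Leaving out NDWT replicate 3, whose Axin2 was the lowest of its group, put 3 genes past the threshold, with Axin2 and Lect2 added, and leaving out NDKO replicate 5 put 2 past it, with Lect2 added. Of all calls in this comparison 36.5% were upward, and 51.4% with median of ratios scaling.

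For TSP-1 null against WT on CDAHFD, 4 of the 10 genes were past the threshold, all lower, beside 0.496% of all tested genes (0.165% upward and 0.330% downward). They were Slc1a2 with a log2FC of -2.30 (SE 0.17), Oat with -0.93 (SE 0.16), Rhbg with -0.87 (SE 0.18) and Glul with -0.66 (SE 0.13), which are the 4 genes of glutamate and ammonium handling in the list. Groups did not overlap for Slc1a2, Oat, Glul and Lect2, beside 4.98% of all genes. Lect2 was at -0.52 (SE 0.14) and Tbx3 at -0.46 (SE 0.20). Rspo3, Axin2, Znrf3 and Lgr5 were at -0.21 (SE 0.15), -0.17 (SE 0.18), 0.083 (SE 0.090) and 0.024 (SE 0.26). Without HFWT replicate 1, which held the highest Glul, Rhbg, Lgr5, Axin2 and Lect2 values of its group, 2 of the 4 stayed past the threshold, Oat and Slc1a2. Rhbg also dropped below it without HFWT replicate 2 or 3, or without HFKO replicate 1, 3 or 4. Median of ratios scaling left Oat, Rhbg and Slc1a2, and the share of upward calls over all genes went from 33.3% to 58.5%. Beside these values, the summed hepatocyte markers spanned 33900.0 to 46436 FPKM in HFWT and 42541 to 57103 in HFKO, and the summed cholangiocyte markers 302 to 502 and 192 to 374. Both sums overlapped between the genotypes, and their part in the values of the 10 genes was not tested.

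The interaction, the genotype difference on CDAHFD less that on control diet, was past the threshold for 1 of the 10, Oat at -1.10 (SE 0.22), beside 0.647% of all tested genes (0.337% upward and 0.310% downward). Slc1a2 had -0.98 (SE 0.24), Glul -0.59 (SE 0.18) and Rhbg -0.44 (SE 0.25). The remaining members lay between -0.26 (Tbx3) and 0.25 (Axin2). The comparisons of genotype share their libraries with those of diet, so they are not independent of each other.

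**Figure D2:**
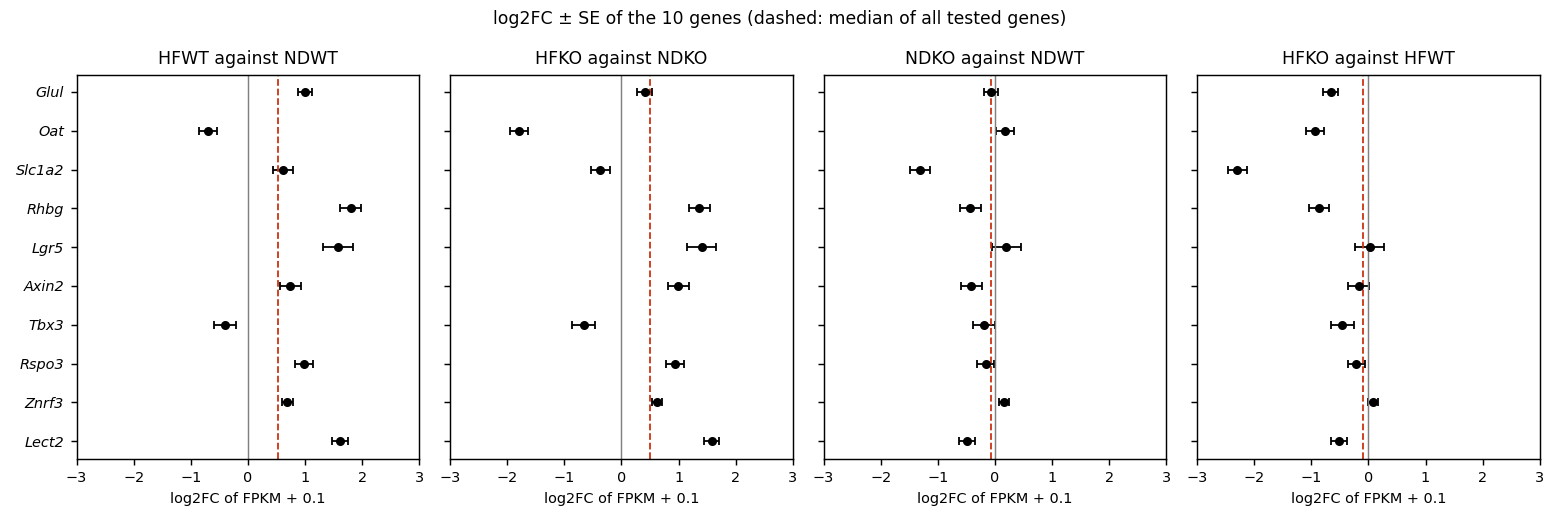
log2FC (x axis, log2 of FPKM + 0.1) with SE for the 10 genes in the 4 comparisons, with a grey line at 0 and a dashed line at the median of all 14524 tested genes. In WT the diet puts Znrf3, Axin2 and Slc1a2 close to the dashed line, and on CDAHFD Slc1a2 lies farthest from it at -2.30.

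A ratio of FPKM between a pair of members within a library is unchanged when the whole library is scaled by a single factor, as in median of ratios scaling. Quantile normalization uses no such factor and can change it. The Glul to Oat ratio was 0.599 ± 0.0991 (NDWT), 0.508 ± 0.0817 (NDKO), 1.94 ± 0.319 (HFWT) and 2.35 ± 0.369 (HFKO). It ranged from 0.432 to 0.749 over the control diet livers and from 1.63 to 2.78 over the CDAHFD livers, so Glul was the lower of the pair in every control diet liver and the higher in every CDAHFD liver. The Rhbg to Slc1a2 ratio was 0.526 ± 0.189, 0.942 ± 0.181, 1.19 ± 0.354 and 3.15 ± 0.182 in NDWT, NDKO, HFWT and HFKO. In HFKO it kept within 2.89 to 3.29, above all 15 other livers. Glul to Slc1a2 stood at 28.9 ± 5.27 in NDWT and 37.8 ± 8.71 in HFWT, against 69.4 ± 12.5 in NDKO and 121 ± 30.0 in HFKO. Axin2 to Tbx3 was 0.162 ± 0.0311 and 0.135 ± 0.0160 on control diet and 0.365 ± 0.0687 and 0.443 ± 0.0547 on CDAHFD, in WT and null mice, with no overlap of diets. Lgr5 to Znrf3 was 0.205 ± 0.0854, 0.206 ± 0.0548, 0.424 ± 0.133 and 0.396 ± 0.0851, and the diets overlapped. Lect2 to Glul was 0.163 ± 0.0168, 0.124 ± 0.0317, 0.251 ± 0.0412 and 0.275 ± 0.0207 in NDWT, NDKO, HFWT and HFKO. These ratios show that the members of each pair changed unequally, and not which of them changed.

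**Figure D3:**
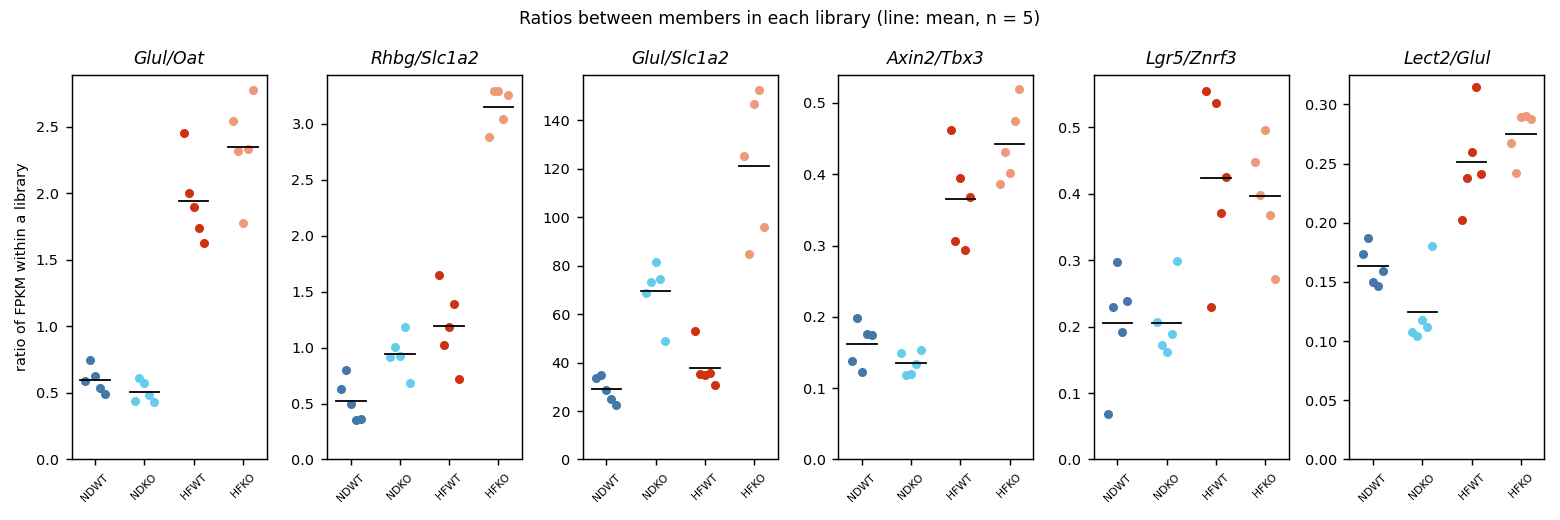
Ratio of FPKM between pairs of members within each library (y axes linear from 0), with the 4 groups on the x axis, 1 point per mouse and a line at the mean of 5 mice. Glul to Oat and Axin2 to Tbx3 part the diets, and Rhbg to Slc1a2 is above 2.88 in HFKO alone.

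A further 26 genes of the pericentral zone, mostly drug-metabolizing enzymes and transporters, were described beside the 10. In WT 10 of the 26 rose with CDAHFD and 4 fell, the median log2FC being 0.11 against 0.53 over all tested genes. In TSP-1 null mice 10 rose and 9 fell, with a median of -0.018 against 0.50. The share called was 53.8% (WT) and 73.1% (null), beside 48.8% and 45.9% of all tested genes. The glutathione transferases Gstm3 (log2FC 6.41, SE 0.40, FDR = 5.05e-11 in WT), Gstm2 (log2FC 2.39, SE 0.19, FDR = 1.53e-09) and Gstm1 (log2FC 2.16, SE 0.17, FDR = 1.06e-09) rose, although such near-identical genes can share reads. The cytochromes went both ways. Cyp2a5 rose in WT (log2FC 2.57, SE 0.23, FDR = 7.64e-09), and Cyp1a2, which handles caffeine, went from 136 ± 34.6 to 269 ± 98.8 FPKM (log2FC 0.95, SE 0.25, FDR = 0.00194). Cyp1a2 thus lay 0.42 above the median gene. Cyp2e1, the ethanol-inducible cytochrome and the highest of the list, was 4580.1 ± 569.9 FPKM in NDWT and 3509.9 ± 425 in HFWT (log2FC -0.38, SE 0.11, FDR = 0.00446). Cyp2e1 was short of the fold threshold there, and stood at -0.91 relative to the median gene. It fell in TSP-1 null mice, from 4681 ± 272 to 2753 ± 390.0 FPKM (log2FC -0.78, SE 0.11, FDR = 4.29e-06). Cyp2c54 fell in WT (log2FC -1.41, SE 0.19, FDR = 1.89e-06) and in TSP-1 null mice (log2FC -2.16, SE 0.19, FDR = 7.38e-09). Ces1d also fell in WT (log2FC -1.86, SE 0.17, FDR = 1.19e-08) and in TSP-1 null mice (log2FC -1.47, SE 0.17, FDR = 3.24e-07). With median of ratios scaling 7 rose and 13 fell in WT, and 6 rose and 12 fell in TSP-1 null mice, so the balance within this list turned with that scaling. Quantile normalization gave 11 up and 6 down in WT.

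Between genotypes on control diet, 4 of the 26 passed: Aldh1a1 (log2FC -0.69, SE 0.11, FDR = 0.000538) and the dicarboxylate transporter Slc13a3 (log2FC -0.73, SE 0.21, FDR = 0.0253) were lower in TSP-1 null mice, and Ahr (log2FC 0.71, SE 0.16, FDR = 0.00602) and the bile acid enzyme Cyp7a1 (log2FC 2.09, SE 0.46, FDR = 0.00578) were higher. On CDAHFD 1 of the 26 passed, Lhpp, a phosphatase, which went from 33.3 ± 1.89 FPKM in HFWT to 21.2 ± 3.65 in HFKO (log2FC -0.67, SE 0.11, FDR = 0.00301). The median of the list was -0.29 there, beside -0.097 over all tested genes and -0.49 over the 10 members. Between genotypes 4.77% (control diet) and 0.496% (CDAHFD) of all tested genes were called. Slc38a3, the glutamine transporter of the same cells, was 312 ± 50.5 FPKM in HFWT and 380.3 ± 25.0 in HFKO (log2FC 0.30, SE 0.10, FDR = 0.137), and did not pass in any comparison.

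Of 22 genes of the opposite, periportal zone, 1 rose and 9 fell with CDAHFD in WT, and 1 rose and 14 fell in TSP-1 null mice, with medians of -0.46 and -0.78. Called in either direction were 45.5% (WT) and 68.2% (null) of the list, beside 48.8% and 45.9% of all tested genes. With median of ratios scaling 19 (WT) and 17 (null) fell, and with quantile normalization 7 and 9, with 1 up in each case. Cdh1, which encodes E-cadherin, was the gene that rose (log2FC 2.39, SE 0.18, FDR = 5.93e-10 in WT). In WT, Cyp2f2 fell from 389.5 ± 39.3 FPKM to 151 ± 29.5 (log2FC -1.38, SE 0.13, FDR = 1.69e-08) and Gls2, the liver glutaminase, from 83.5 ± 11.4 to 51.2 ± 15.8 (log2FC -0.74, SE 0.17, FDR = 0.000611). On control diet 9 of the 22 (40.9%, beside 4.77% of all genes) were higher in TSP-1 null mice and none lower, among them the urea cycle enzymes Asl (log2FC 1.63, SE 0.18, FDR = 2.64e-05), Ass1 (log2FC 1.08, SE 0.14, FDR = 9.19e-05) and Cps1 (log2FC 1.10, SE 0.18, FDR = 0.000949). On CDAHFD 1 was higher in TSP-1 null mice, Gls2 at 83.6 ± 10.9 FPKM against 51.2 ± 15.8 (log2FC 0.75, SE 0.17, FDR = 0.037). The periportal median between genotypes on CDAHFD was 0.38, on the other side of the all-gene median from the -0.49 of the members, a difference between lists that was not tested.

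Among Wnt ligands, R-spondins and receptors, 19 of 31 genes were expressed enough to be tested, and 7 rose with CDAHFD in each genotype while none fell, a share of 36.8% beside 48.8% and 45.9% of all genes. With median of ratios scaling the counts were 5 up and 5 down in WT and 5 up and 2 down in TSP-1 null mice. With quantile normalization they were 4 up and 9 down in WT, so that most calls were then lower, and 5 up and 4 down in null mice. Wls, which carries Wnt proteins out of the cell, rose in WT (log2FC 2.12, SE 0.13, FDR = 4.42e-11) and in TSP-1 null mice (log2FC 1.80, SE 0.13, FDR = 4.9e-10), as did Wnt5a (log2FC 2.42, SE 0.21, FDR = 4.26e-09 in WT) and Wnt4 (log2FC 2.13, SE 0.19, FDR = 1.02e-08 in WT). Wnt2, a ligand made by central vein endothelium, was 1.81 ± 0.634, 1.18 ± 0.148, 2.30 ± 0.491 and 1.83 ± 0.727 FPKM in NDWT, NDKO, HFWT and HFKO and passed in no comparison. Wnt9b, the other such ligand, had 0.359 ± 0.0990 FPKM in NDWT and 0.612 ± 0.128 in HFWT (log2FC 0.64, SE 0.27, FDR = 0.0356), a log2FC close to that of the median gene, and it changed sign with quantile normalization. Lgr4, the R-spondin receptor that all hepatocytes carry, was at 8.48 ± 0.552 FPKM in NDWT and 7.46 ± 1.29 in HFWT (log2FC -0.20, SE 0.11, FDR = 0.0981), beside the higher Lgr5 of CDAHFD livers. On control diet 3 Frizzled receptors were lower in TSP-1 null mice: Fzd5 (log2FC -0.81, SE 0.16, FDR = 0.00271), Fzd4 (log2FC -0.70, SE 0.14, FDR = 0.0029) and Fzd7 (log2FC -0.65, SE 0.17, FDR = 0.0168).

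Of the Wnt inhibitors and feedback targets 11 of 23 were tested, and 10 of them rose with CDAHFD in each genotype, and the medians of the list were 2.15 (WT) and 1.44 (TSP-1 null). The 10 were 90.9% of the tested genes of the list, beside 44.1% (WT) and 41.9% (null) of all tested genes. Median of ratios scaling gave 7 up and quantile normalization 6 up in each genotype, with none down. The largest values in WT were those of Ccnd1, a cyclin (log2FC 3.31, SE 0.19, FDR = 2.38e-11), the secreted inhibitor Frzb (log2FC 3.18, SE 0.21, FDR = 1.33e-10) and Dkk3 (log2FC 2.71, SE 0.16, FDR = 2.5e-11), which are also expressed outside hepatocytes. Nearer to the members, Nkd1 rose in WT from 1.85 ± 0.398 FPKM to 4.35 ± 1.15 (log2FC 1.18, SE 0.17, FDR = 4.33e-06) and Notum from 8.86 ± 1.14 to 15.5 ± 2.39 (log2FC 0.80, SE 0.14, FDR = 4.19e-05). Sp5, a direct target, went from 2.18 ± 0.546 to 3.60 ± 0.552 FPKM (log2FC 0.73, SE 0.24, FDR = 0.0112). Rnf43, the partner of Znrf3, went from 4.25 ± 1.09 to 8.70 ± 0.677 FPKM (log2FC 1.05, SE 0.17, FDR = 1.79e-05). The log2FC of Nkd1, Notum, Sp5 and Rnf43 still hold the diet shift, which put the median gene at 0.53 in WT. Whether each of them stayed called with another scaling, and their values in TSP-1 null mice, are not reported here. In the transduction list, 4 of 19 tested genes rose in WT mice (21.1%, beside 44.1% of all genes) and 7 in TSP-1 null mice (36.8%, beside 41.9%). Among them was Ctnnb1, β-catenin itself, which in WT went from 38.9 ± 1.14 FPKM to 73.3 ± 5.24 (log2FC 0.91, SE 0.062, FDR = 1.77e-10), a log2FC 0.38 above the median gene. No gene of this list was called by limma in either genotype with median of ratios scaling, and with quantile normalization 1 rose and 3 fell in WT and 1 rose and 1 fell in null mice. Tcf7l2, the main TCF factor of hepatocytes, was 2.32 ± 0.256 FPKM in NDWT and 2.59 ± 0.282 in HFWT (log2FC 0.15, SE 0.086, FDR = 0.121). Nkd1 and Notum were picked for mention after their values were seen.

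On CDAHFD no gene of the 49 tested in the 3 Wnt lists was called by limma between the genotypes, beside 0.496% of all genes. An unadjusted limma p below 0.05 was found for 5 of the 49. The share of all genes at that unadjusted level was not counted, so nothing is read from the 5. The median log2FC of the 49 was -0.039. On control diet 6 of the 49 were called, 1 higher and 5 lower, beside 4.77% of all genes. Rspo3, Lgr5, Znrf3 and Axin2 of the members were not past the threshold there either.

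Of 20 tested genes that handle glutamate, ornithine and ammonium, 7 rose and 2 fell with CDAHFD in WT, and 6 rose and 4 fell in TSP-1 null mice, beside 48.8% and 45.9% of all genes called. The balance turned with median of ratios scaling, to 6 up and 9 down in WT and 6 up and 8 down in null mice, and with quantile normalization it was 6 up and 3 down, and 6 up and 4 down. The neutral amino acid transporter Slc1a5 (log2FC 3.13, SE 0.19, FDR = 5.26e-11), Slc38a1 (log2FC 2.20, SE 0.17, FDR = 8.3e-10) and the proline enzyme Aldh18a1 (log2FC 1.86, SE 0.15, FDR = 2.41e-09) were among those that rose in WT. On control diet 4 were higher in TSP-1 null mice, with Got1, the cytosolic aspartate aminotransferase, at 359 ± 92.7 FPKM against 91.6 ± 35.7 (log2FC 2.00, SE 0.24, FDR = 3.89e-05), and Gls2, Gpt2 and Prodh behind it. On CDAHFD Gls2 alone passed, and it was higher in HFKO. Over all tested genes, 4.77% were called between genotypes on control diet and 0.496% on CDAHFD.

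Markers of other cells moved with the diet and stand here beside the diet values above. For each count, the share over all tested genes was 44.1% (WT) and 41.9% (null) called higher, and 4.62% and 4.00% called lower. The summed FPKM of 9 central vein endothelial markers, which include Wnt2 and Wnt9b, was 14.1 to 16.3 (NDWT), 11.2 to 14.9 (NDKO), 39.6 to 46.5 (HFWT) and 35.2 to 48.7 (HFKO), and 5 of the 9 rose in WT mice and 7 in null mice, beside 44.1% and 41.9% of all genes. Fabp4 made up most of this sum, with means of 8.3 (NDWT), 7.8 (NDKO), 29.7 (HFWT) and 27.3 FPKM (HFKO), so the sum mainly follows that gene. Median of ratios scaling gave 2 and 3 of the 9 up, and with quantile normalization 2 rose and 3 fell in WT, and 2 rose and 1 fell in null mice. All 12 stellate cell and fibroblast markers rose in both genotypes as deposited, and 10 (WT) and 9 (null) with either other scaling, with sums of 65.0 to 82.1 and 81.9 to 87.5 on control diet and 290.4 to 563 and 313 to 407 on CDAHFD, in WT and null mice. Of 8 cholangiocyte markers 6 were tested and all 6 rose in both genotypes as deposited, and 5 with either other scaling. Their sum was 20.6 to 24.4, 18.3 to 22.2, 302 to 502 and 192 to 374 FPKM in NDWT, NDKO, HFWT and HFKO, and 2 of the 8 stayed at or under 3 fragments in every NDWT liver. The sum of 10 macrophage markers was 247 to 328, 228 to 383, 1334 to 1835 and 869.8 to 1907, with 7 higher and 1 lower in WT and 8 higher and 1 lower in TSP-1 null mice. Of 11 tested markers of the endothelium at large, 3 rose in WT mice and 6 in TSP-1 null mice, their sums being 110.4 to 119, 88.0 to 114, 110.2 to 179 and 126 to 193. In WT this turned to 0 up and 3 down with either other scaling, and in null mice 1 rose with median of ratios and 2 with quantile normalization. Of 9 hepatocyte markers, 2 fell in WT mice and 1 in null mice as deposited, 8 and 5 with median of ratios scaling, and 1 in each with quantile normalization, where 1 also rose in WT. Between the genotypes on CDAHFD limma called none of the tested markers in these 6 lists. An unadjusted limma p below 0.05 was found for 4 of 9 hepatocyte, 3 of 12 stellate and 3 of 10 macrophage markers. It was also found for 2 of 6 cholangiocyte, 2 of 11 endothelial and 0 of 9 central vein markers. The share of all genes at that unadjusted level was not counted. The part of these cells in the values of the 10 genes was not tested.

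Within groups, mice could be compared without using any difference between groups. For each member the deviation of log2(FPKM + 0.1) from the group mean was taken in all 20 livers, and all 45 pairs were correlated. Of the 45 Pearson coefficients 33 were positive, from -0.47 to 0.753, with a median of 0.217. A single pair passed after adjustment over the 45, Axin2 and Tbx3, with r = 0.753 (permutation within groups, two-sided, p = 0.00058, adjusted p = 0.0261) and Spearman's rho = 0.785 (permutation p = 0.00032, adjusted p = 0.0144). Without the 2 livers farthest from the median of Axin2 r was 0.740, and it was 0.791 over the 10 control diet livers and 0.694 over the 10 CDAHFD livers. With each liver left out in turn r stayed between 0.725 and 0.796, while the adjusted p ranged from 0.00855 to 0.0742 and passed in 13 of 20 cases. Livers high in Axin2 for their group were thus high in Tbx3, although the diet parted the means of these genes. Glul correlated with Axin2 (r = 0.586, permutation p = 0.0044, adjusted p = 0.078), Lect2 (r = 0.527, permutation p = 0.0052, adjusted p = 0.078) and Oat (r = 0.551, permutation p = 0.00874, adjusted p = 0.0983), none of which passed. In all, 6 of the 45 pairs had an unadjusted p under 0.05.

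**Figure D4:**
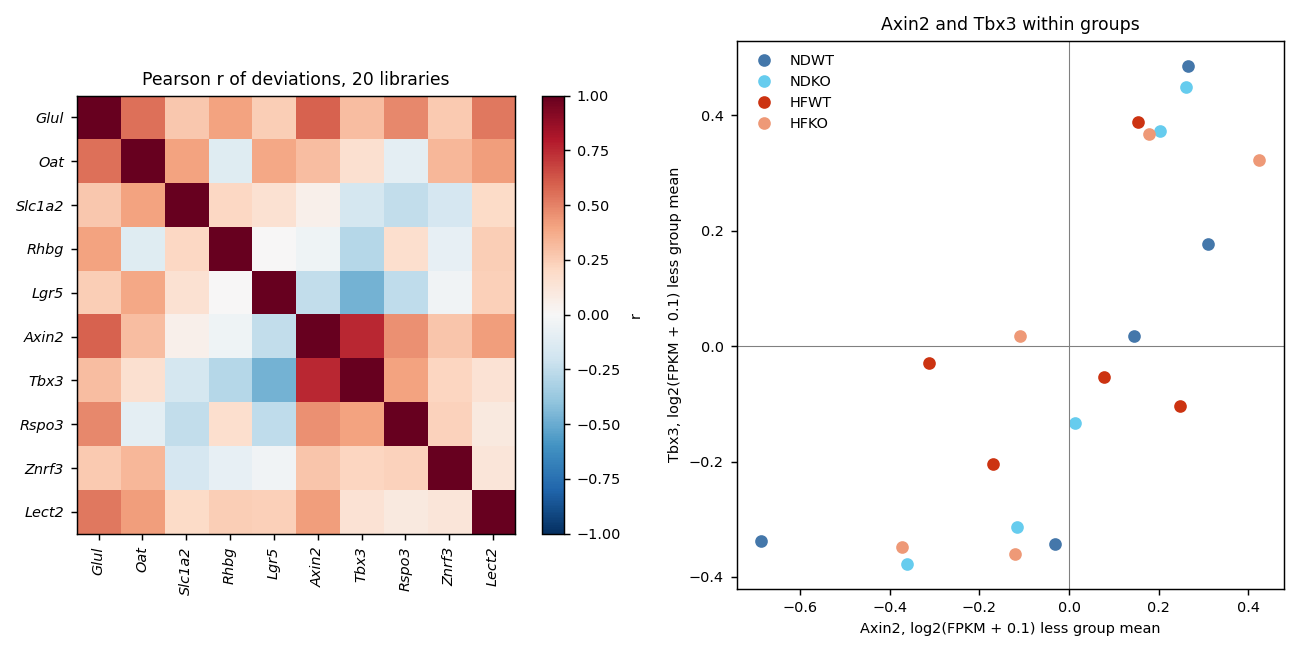
Left, Pearson r between deviations from group means for every pair of the 10 genes over 20 libraries, on a colour scale from -1 to 1. Right, the deviation of Tbx3 against that of Axin2 (both in log2 units, 1 point per mouse, coloured by group), where the points run from low in both to high in both.

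Among the tested genes most like Glul in these within-group deviations were Nbl1 (r = 0.766), Aars (r = 0.742), Lipc (r = 0.738) and Vipr1 (r = 0.729), over 20 libraries. Those most like Axin2 were Gm11768 (r = 0.841), Ube2e2 (r = 0.832), Sp5 (r = 0.80), Cntfr (r = 0.795) and Gm25301 (r = 0.793). Sp5 is itself a Wnt target from the fixed list. These coefficients are among the highest of the tested genes that are not members, share the 20 libraries and are given as descriptions with no p-value.

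Slc1a2 and Thbs1 lie on the same chromosome, 15.3 Mb apart, with Slc1a2 at chr2:102658659-102790784 and Thbs1 at chr2:118111876-118127133 (GRCm38). Within 5 Mb of Slc1a2 the table held 127 further genes, of which 39 were tested. On control diet 7 of the 39 (17.9%) were called between genotypes, beside 4.77% of all tested genes, and on CDAHFD 4 (10.3%), beside 0.496%. The 4 called on CDAHFD were called in the same direction on control diet, as were 0.248% of all tested genes. Cd59a, an inhibitor of complement lysis 1.31 Mb away, had mean FPKM of 31.8 (NDWT) and 12.0 (NDKO) on control diet, and of 28.8 (HFWT) and 12.1 (HFKO) on CDAHFD. Its log2FC was -1.40 (SE 0.090, FDR = 5.81e-09) on control diet and -1.24 (SE 0.090, FDR = 6.42e-08) on CDAHFD. Cd59b, a related gene at 1.28 Mb with which reads may be shared, was at -2.10 (SE 0.27, FDR = 8.05e-05) and -1.59 (SE 0.27, FDR = 0.00473). The noncoding A930018P22Rik was at -1.32 (SE 0.34, FDR = 0.0141) and -1.56 (SE 0.34, FDR = 0.029). Tcp11l1, at 1.87 Mb, went the other way with 1.34 (SE 0.19, FDR = 0.000255) and 1.08 (SE 0.19, FDR = 0.00741).

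Of the neighbours closest to Slc1a2, Cd44 was negative on both diets and called on control diet alone, and Pamr1 was called on neither. Cd44, a hyaluronan receptor 0.02 Mb beyond its end, was at -1.11 (SE 0.18, FDR = 0.000648) on control diet and -0.56 (SE 0.18, FDR = 0.122) on CDAHFD. Pamr1, 0.02 Mb before its start, was at -0.022 (SE 0.16, FDR = 0.953) and -0.33 (SE 0.16, FDR = 0.303). Farther away, Prrg4 at 2.04 Mb and Gm13880 at 1.03 Mb were called on control diet alone. Their log2FC there were -1.29 (SE 0.29, FDR = 0.00639) and 1.05 (SE 0.21, FDR = 0.00278). Pamr1 was named for its place. No other member lies on chromosome 2. The mice labelled TSP-1 null came from 1 stock line, so alleles that line carries near Thbs1 and the loss of TSP-1 cannot be told apart for Slc1a2. No allele was read from these data.

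**Figure D5:**
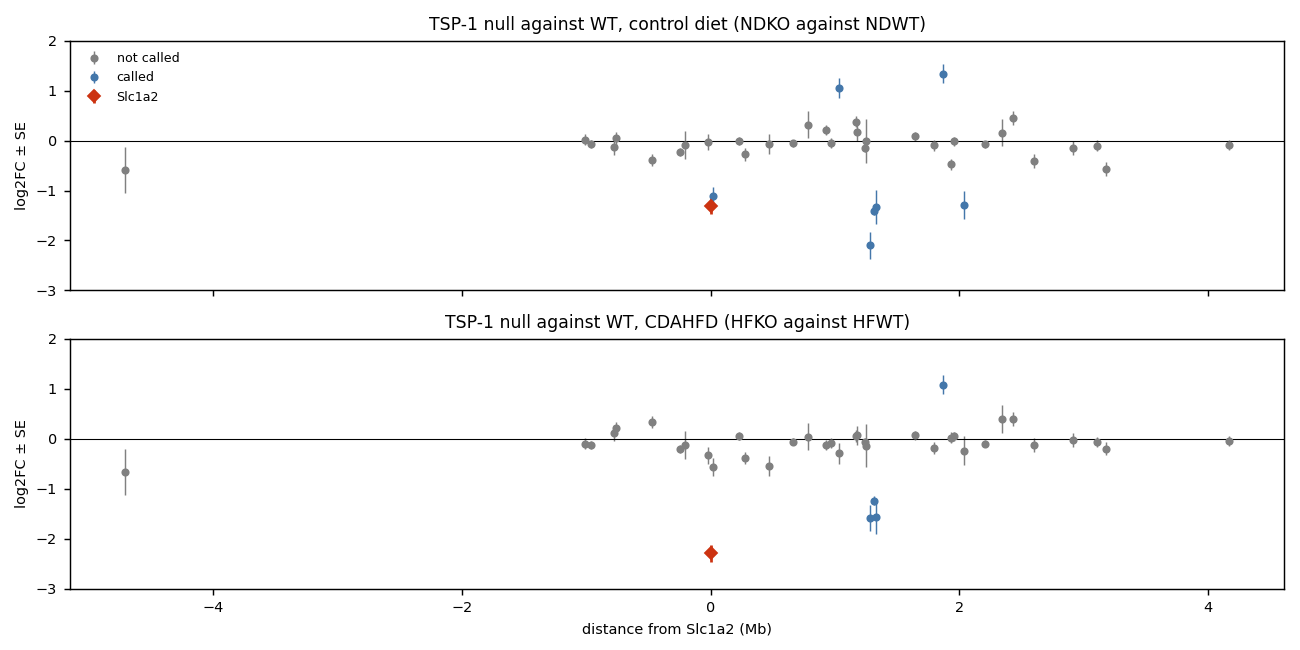
log2FC ± SE between TSP-1 null and WT livers for the 39 tested genes within 5 Mb of Slc1a2, against their distance from it in Mb, on control diet (top) and CDAHFD (bottom), with called genes in blue and Slc1a2 as a red diamond. Most neighbours lie near 0, and 3 genes at 1.28 to 1.33 Mb lie below -1 on both diets.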

How the data were processed

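RNA was extracted from 1 liver lobe of each of 20 mice, and poly(A) libraries were made with a directional kit and sequenced as paired 150 base reads. The authors deposited a gene table in FPKM, made with the QuickRNASeq pipeline. The submitters' processing notes name STAR 2.5.2 and featureCounts of Subread 1.5.1, and a human build, whereas the coordinates in the table are those of mouse GRCm38: 37607 of 38924 identifiers were in GENCODE M21. Whether strand was used in counting is not given in the sources used here. For 7 of the 10 genes the span in the table overlaps another gene, among them Oat with Fgfr2 and Glul with A930039A15Rik on the same strand, so their reads may be shared.

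Fragment counts were recovered from the FPKM values and were whole (within 0.1 fragments) for 100.0% of the values checked. A count of 3 fragments on a gene of 1 kb equals 0.129 to 0.192 FPKM. No library duplicated another of its own group, and libraries of different groups were not checked for this. The labels gave the 4 groups. Genes above 0.5 FPKM in at least 5 libraries (14524) were fitted over all 20 libraries on log2(FPKM + 0.1) with limma 3.58.1 (R 4.3.3), two-sided, with a trended variance, as FPKM are not counts. All 10 members passed this filter. Nothing states that mice of a group were independent beyond being separate animals. Correlations between members used deviations from group means and 100000 permutations within groups, adjusted over 45 pairs. Alternatives changed the pseudocount (0.01 or 1), the filter, the scaling, the fold threshold, the variance trend, the libraries fitted and the replicate block, and left out each library in turn. Code was tested on simulated data.

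The members and gene lists were chosen with earlier results of these data known. Besides the members, the genes named were Thbs1, 11 genes of known zonation or Wnt roles, at most the 6 called genes with the lowest FDR per list and comparison, called genes within 5 Mb of Slc1a2, and the 5 genes most like Glul and Axin2. A few genes that this rule would name are not reported here.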

Additional observations from a re-analysis of the deposited data

Results flagged for a closer look

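In the HFWT group 1 liver stood far from the others in Tbx3, with 14.263 FPKM, and its gap to the next liver took 0.746 of the range of the group, above the critical value of Dixon's test for 5 samples. Over the 40 groups of 5 checked, chance alone would mark about 1 in 20.

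For 5 genes of the lists the genotype difference on CDAHFD differed from that on control diet by the interaction term of limma. This term called 0.647% of all tested genes. The interaction log2FC was -1.28 for Asl (FDR = 0.0257), -1.77 for Got1 (FDR = 0.0183), -0.79 for Lhpp (FDR = 0.0191) and -1.28 for Trem2, a macrophage receptor (FDR = 0.0258). It was 1.0 for Fzd5 (FDR = 0.0389).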

How the results depend on the processing

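The count of members past the threshold for the diet in WT was 9, and 5 with median of ratios scaling and 4 with quantile normalization. For the genotype on control diet it was 1, and 2 with no fold change threshold. For the genotype on CDAHFD it was 4, and 2 when only the compared groups were fitted. For the interaction it was 1, then 0 with no filter on low values, and 2 with a mean FPKM above 0.5, with FPKM above 1 in at least 5 libraries, or with quantile normalization. Of the other pericentral genes, with no fold change threshold 23 were called in place of 14 for the diet in WT. For the genotype on control diet 9 were called in place of 4, again with no fold change threshold. For the genotype on CDAHFD median of ratios scaling gave 0 in place of 1. As deposited, 13 of 26 had an unadjusted limma p below 0.05 there, a level at which all genes were not counted. Of the Wnt genes, for the diet in WT 35 were called with no filter and 36 with no fold change threshold in place of 21. For the diet in TSP-1 null mice there were 37 and 39 in place of 24, and 14 with median of ratios scaling. For the genotype on control diet there were 2 with a pseudocount of 1, 10 with no fold change threshold and 3 with only the compared groups, in place of 6. With quantile normalization the diet log2FC of genes named here turned sign in WT for Axin2 (-0.0148), Znrf3 (-0.1104), Bcl9 (-0.1051), Dvl2 (-0.0763), Fzd6 (-0.0744), Selp (-0.6318) and Wnt9b (-0.6883), and in TSP-1 null mice for Znrf3 (-0.103) and Wnt9b (-0.3033). The cause was not tested beyond the construction of each alternative.

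With each library left out, members past the threshold numbered 7 to 9 (diet, WT), 7 to 8 (diet, TSP-1 null), 1 to 3 (genotype, control diet), 2 to 4 (genotype, CDAHFD) and 0 to 2 (interaction). The genotype count on control diet was 3 without NDWT replicate 3 and 2 without NDKO replicate 5, and on CDAHFD 2 without HFWT replicate 1. On CDAHFD it was 3, with Rhbg dropped, without HFWT replicate 2 or 3 or HFKO replicate 1, 3 or 4. The interaction count was 0 without NDWT replicate 3, NDKO replicate 1, NDKO replicate 4 or HFKO replicate 1, and 2 without NDWT replicate 4, NDWT replicate 5 or HFWT replicate 4. Other pericentral genes numbered 13 to 16, 18 to 20, 3 to 5 and 1 to 2 in the 4 group comparisons, with 2 without HFWT replicate 4 in the last. Wnt genes numbered 19 to 23, 22 to 26, 4 to 7 and 0 to 0, and genes near Slc1a2 called on both diets 3 to 4. Member pairs that passed numbered 0 to 2: none without NDWT replicate 4, NDKO replicates 1 to 4 or HFKO replicates 3 and 4, and 2 without NDKO replicate 5 or HFKO replicate 2.

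Replicate numbers were shared between groups. Over 30 pairs of libraries with the same number the deviations correlated with r between -0.13 and 0.08 (median 0.02). Libraries with the same number thus showed no common deviation over the tested genes. Whether they shared housing, handling or preparation was not tested. With the replicate block the 5 counts of members past the threshold stayed at 9, 8, 1, 4 and 1, with Slc1a2 in place of Oat for the interaction, and 2 member pairs passed in place of 1: Axin2 with Tbx3 (r = 0.766, permutation, adjusted p = 0.0252) and Glul with Oat (r = 0.643, permutation, adjusted p = 0.0477).

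Lgr5, with 34 fragments in its lowest library, has the coarsest counts of the members.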
